A study of Homo sapiens with 12 samples.

Results

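The genes described here are 10 markers of the germinal centre B cell, MME, LMO2, MYBL1, SERPINA9, GCSAM, STAP1, ASB13, ITPKB, LRMP and CD38. They were given by name and matched by symbol to rows of a count table of 28278 genes. All 10 had a row, 8 had a count in at least 1 library, and 7 passed the filter on low counts and were tested, among 8813 tested genes in all. RNA came from OCI-Ly7, a cell line of human diffuse large B-cell lymphoma whose labelled source is a pleural effusion, and was counted by MARS-seq, which reads barcoded cDNA from the 3′ ends of transcripts. Every line was untreated, and the 3 mutant lines were made by CRISPR in OCI-Ly7. The lines were a double mutant (kmt2d-/- with EZH2 Y646N, 3 libraries), an EZH2 mutant (EZH2 Y646N, gain of function, 2 libraries of the 3 samples listed), a KMT2D mutant (kmt2d-/-, loss of function, 3 libraries) and the wild-type parent line (WT, 3 libraries). The labels name 1 line per genotype and do not say whether it grew from a single cell, so the genotype cannot be told apart from other differences between lines.

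The germinal centre is the structure in lymphoid tissue where B cells mutate their antibody genes and are selected for binding antigen. B cells there switch on a shared set of surface enzymes, adaptors and transcription factors, and lymphomas that arise from them often keep that set. Pathologists and expression assays use it to tell the germinal centre class of large B-cell lymphoma from the activated B-cell class. MME (the surface protein CD10) is a standard stain for the class, and MME, SERPINA9, ASB13, ITPKB and MYBL1 are germinal centre genes of the Lymph2Cx expression assay. EZH2 places the H3K27 methyl mark of Polycomb repression, often found at CpG-rich promoters, and KMT2D places H3K4 methylation at enhancers.

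Library totals ran from 1118710 counts in EZH2 mutant replicate 1 to 3107871 in KMT2D mutant replicate 1. The 7 listed B-cell genes were detected in every line and summed to 16500 to 19000 CPM (counts scaled to a common library total) in the double mutant, 17600 to 22800 in the EZH2 mutant, 13200 to 17300 in the KMT2D mutant and 12900 to 18300 in wild type. The T-cell receptor gene CD3E had 2 counts in the double mutant, 0 in the EZH2 mutant, 1 in the KMT2D mutant and 1 in wild type, and the myeloid genes CSF1R, FCGR3A, MPO, S100A8 and S100A9 had none. The 10 listed myeloid genes summed to 4.23 to 6.00 CPM of the library total in the double mutant, 12.5 to 12.8 in the EZH2 mutant, 11.5 to 16.2 in the KMT2D mutant and 19.4 to 33.6 in wild type. The 11 T and NK cell genes summed to 176 to 203, 195 to 201, 257 to 317 and 225 to 287 CPM in the same order, and the 9 fibroblast and epithelial genes to 5.69 CPM or less in every library. The myeloid sum was thus lowest in the double mutant and highest in wild type, and the T and NK cell sum was lower in both lines with mutant EZH2. Of the 11 T and NK cell genes 7, 8, 3 and 5 had no count, in the same order. Those tested were LCK, IL7R and PRF1, and AIF1 was the only myeloid gene tested. Against wild type LCK did not pass in the double mutant (log2 -0.28, adjusted p = 0.129) or the EZH2 mutant (log2 -0.15, adjusted p = 0.449). IL7R fell in both (log2 -1.63 and -1.97) and PRF1 in the double mutant (log2 -2.54). The part of these sums in the results on germinal centre genes was not tested. RNA of KMT2D averaged 46.1 ± 17 CPM in the double mutant, 30.2 ± 15.3 in the EZH2 mutant, 38.6 ± 3.78 in the KMT2D mutant and 33.3 ± 9.27 in wild type (SD). It was not lower in the lines labelled kmt2d-/-, at log2 0.46 in the double mutant (adjusted p = 0.235) and log2 0.19 in the KMT2D mutant (adjusted p = 0.739) against wild type. RNA of EZH2 averaged 86.6 ± 4.89, 64.4 ± 14.5, 64.8 ± 0.629 and 76.5 ± 7.45 CPM in the same order of lines. Neither gene's counts check the labels, since 3′ counts show no point mutation or lesion elsewhere in a gene.

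The promoters of the 5 genes that were called in a comparison with wild type are shown because they differ in CpG content, the feature of Polycomb promoters named above. Each is the 250 bases upstream of the first start that RefSeq lists (GRCh38.p14), read 5′ to 3′ on the gene's strand, with CpG dinucleotides in capitals.
ASB13, chr10:5666596-5666845, strand minus: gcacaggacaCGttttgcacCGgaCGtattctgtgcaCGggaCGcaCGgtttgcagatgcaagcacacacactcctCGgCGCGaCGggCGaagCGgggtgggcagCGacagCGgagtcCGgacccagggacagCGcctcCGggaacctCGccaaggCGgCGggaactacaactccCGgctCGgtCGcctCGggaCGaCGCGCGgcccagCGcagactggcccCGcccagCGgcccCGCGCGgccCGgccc
MME, chr3:155079422-155079671, strand plus: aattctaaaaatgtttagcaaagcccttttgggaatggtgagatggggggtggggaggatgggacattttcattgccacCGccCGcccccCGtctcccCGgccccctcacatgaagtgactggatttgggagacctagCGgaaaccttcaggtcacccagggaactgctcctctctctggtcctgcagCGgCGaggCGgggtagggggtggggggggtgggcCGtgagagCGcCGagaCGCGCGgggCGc
GCSAM, chr3:112133249-112133498, strand minus: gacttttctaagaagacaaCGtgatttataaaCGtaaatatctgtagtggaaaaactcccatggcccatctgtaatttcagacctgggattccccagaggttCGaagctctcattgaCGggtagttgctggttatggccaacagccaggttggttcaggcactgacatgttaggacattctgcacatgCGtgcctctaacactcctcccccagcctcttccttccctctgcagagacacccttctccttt
LRMP, chr12:25052456-25052705, strand plus: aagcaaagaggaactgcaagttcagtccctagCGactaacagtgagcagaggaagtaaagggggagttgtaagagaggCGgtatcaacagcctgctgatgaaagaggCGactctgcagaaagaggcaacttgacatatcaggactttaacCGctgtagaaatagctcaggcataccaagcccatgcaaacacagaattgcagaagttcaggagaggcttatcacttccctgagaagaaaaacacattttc
ITPKB, chr1:226739283-226739532, strand minus: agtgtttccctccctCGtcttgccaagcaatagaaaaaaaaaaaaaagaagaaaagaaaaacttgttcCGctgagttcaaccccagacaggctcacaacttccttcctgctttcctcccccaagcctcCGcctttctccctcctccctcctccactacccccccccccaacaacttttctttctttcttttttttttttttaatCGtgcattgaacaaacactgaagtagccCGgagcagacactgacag
ASB13 has 35 CpG in its window, more than 94.2% of the 35116 windows in the RefSeq table, whose median is 11. The printed windows of MME, GCSAM, ITPKB and LRMP have 15, 5, 5 and 4. MME has 3 further windows at other starts, with 25, 23 and 17 CpG, and LRMP has 2, with 1 and 2. The 4 genes that were lower in a line with mutant EZH2 spanned CpG-rich and CpG-poor promoters. ITPKB, which was higher, matched GCSAM in its count. The windows of CD38 and STAP1, which were not called against wild type, have 3 and 2 CpG. Whether CpG content bears on these changes was not tested. Of short motifs sought on both strands, ATGCAAA, the core of the octamer bound by OCT factors, was found once in the LRMP window, where 3.94% of all windows hold it. It was found at 2 places in the SERPINA9 window, chr14:94476198-94476447. TTCNNNGAA, a core shared by BCL6 and STAT sites, occurred once in the GCSAM window and in 6.57% of all windows. The core of the MEF2 site was in none of the 5 printed windows (2.36% of all windows). Nor was the narrow form of the NF-kB site that was sought (1.4%). That form occurred once in each of the second and the third MME window. Looser forms of the NF-kB site were not sought, and the printed windows may hold them.

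ASB13, LRMP and MME were lower in the EZH2 mutant than in wild type, ITPKB was higher, and GCSAM, STAP1 and CD38 did not pass the test. A gene was called at an adjusted p under 0.05 in edgeR's quasi-likelihood test over all tested genes. Of the 7 tested genes 3 fell and 1 rose, while 32.3% of all tested genes were called, 15.1% lower and 17.1% higher. The median log2 fold change was -1.09 over the 7 genes and -0.04 over all tested genes. ASB13, LRMP and GCSAM were lower in the double mutant than in wild type and ITPKB was higher, again 3 and 1 of 7, where 23.7% of all tested genes were called, 11.6% lower and 12.1% higher. The median there was -0.93, against -0.01 over all. GCSAM, which counts toward these calls and medians, passed the filter on low counts only through libraries of the KMT2D mutant and wild type. In the KMT2D mutant 0 of the 7 were called by edgeR, DESeq2 or limma-voom, and 2 had an unadjusted p under 0.05, where 7.66% of all tested genes were called (3.18% higher, 4.48% lower) and 21.0% had such a p. Libraries of the EZH2 mutant lay wholly below those of wild type in 4 of the 7 genes and above in 1, as in 27.7% and 27.3% of all tested genes. For the double mutant against wild type it was 5 below and 1 above, as in 18.3% and 20.0% of all genes, and for the KMT2D mutant 0 and 1, as in 13.9% and 13.0%. Both comparisons with mutant EZH2 share the wild-type libraries. In bulk RNA, fewer expressing cells and less RNA per cell cannot be told apart.

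**Figure D1:**
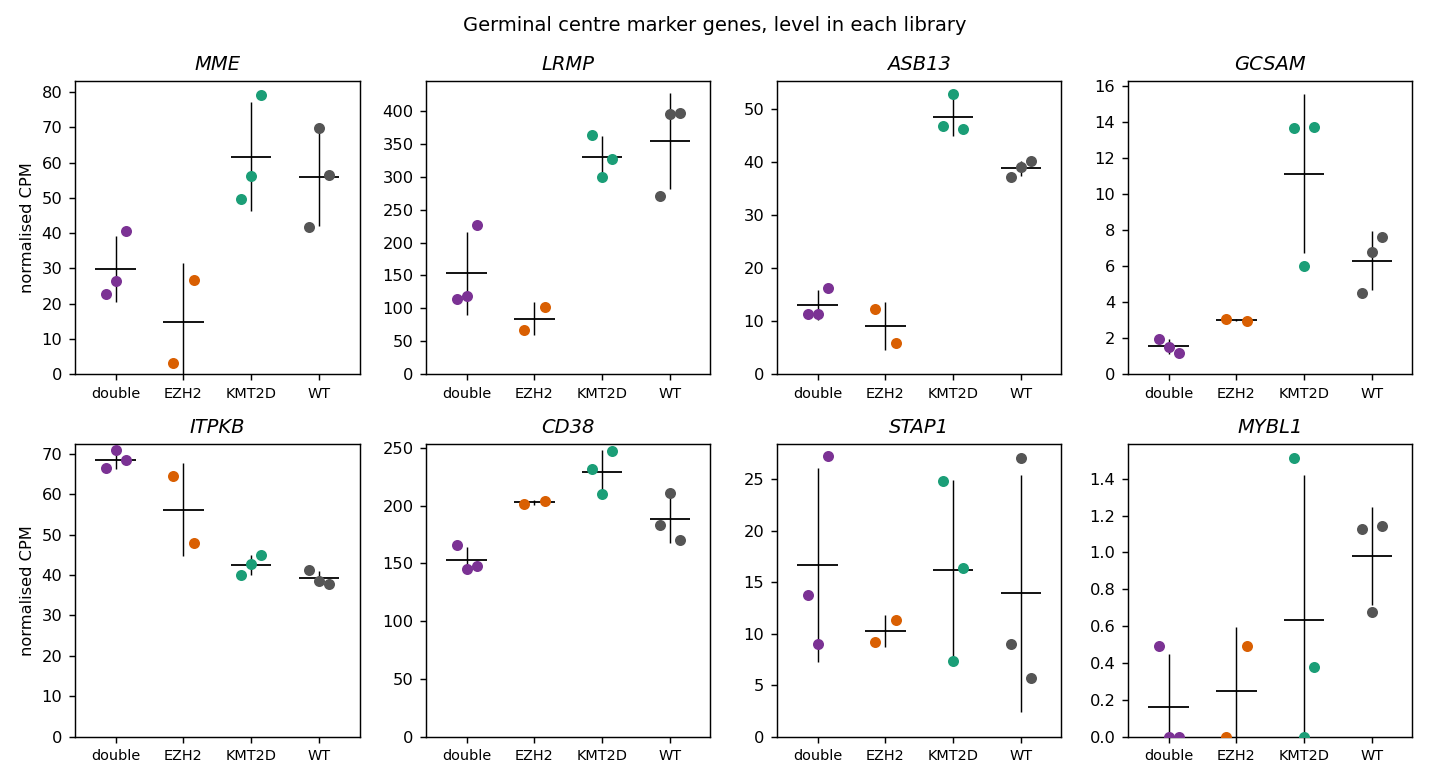
Normalised CPM of 8 germinal centre marker genes (1 panel each, axes from 0) in each library of the double mutant, EZH2 mutant, KMT2D mutant and wild type. Points are libraries, horizontal bars are means and vertical bars are SD; the ASB13 points of the double mutant and EZH2 mutant all lie at or below 16.2 CPM and those of the other lines at or above 37.2 CPM.

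ASB13 encodes a substrate receptor of cullin-based ubiquitin ligases, and lies at 5638867 to 5666595 of chromosome 10, minus strand (ENSG00000196372.12, GENCODE 29 on GRCh38, which may not be the build the counts were made on). It stood at 11.3, 11.3 and 16.2 normalised CPM in the double mutant, 12.3 and 5.94 in the EZH2 mutant, 46.65, 52.8 and 46.1 in the KMT2D mutant and 37.2, 38.9 and 40.1 in wild type. The 5 libraries with mutant EZH2 did not overlap the other 6. How many of all tested genes separate so was not counted. Pairs of lines alone were, and the double mutant lay wholly below wild type in 18.3%. ASB13 fell by 2.23 on the log2 scale (SE 0.29, adjusted p = 2.08e-05) in the EZH2 mutant and by 1.58 (SE 0.22, adjusted p = 4.85e-05) in the double mutant, both against wild type. It also fell by 1.89 on the log2 scale (SE 0.22, adjusted p = 2.31e-06) in the double mutant against the KMT2D mutant, where 20.8% of tested genes fell and 21.2% rose. Line means were 12.9 CPM in the double mutant, 9.10 in the EZH2 mutant, 48.5 in the KMT2D mutant and 38.7 in wild type. The KMT2D mutant did not pass against wild type (log2 0.31, adjusted p = 0.352), although its 3 libraries lay above the wild-type ones, as they did for 13.0% of all tested genes. The double mutant did not pass against the EZH2 mutant (log2 0.65, 95% interval -0.05 to 1.36).

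LRMP, listed in RefSeq as IRAG2, encodes a membrane protein of the endoplasmic reticulum of lymphoid cells that binds inositol trisphosphate receptors, at 25004342 to 25108334 of chromosome 12, plus strand (ENSG00000118308.15). Its levels were 114, 119 and 226 normalised CPM in the double mutant, 66.4 and 102 in the EZH2 mutant, 363.5, 299.9 and 326 in the KMT2D mutant, and 270.5, 396 and 397 in wild type. The double mutant and EZH2 mutant libraries were all below those of the KMT2D mutant and wild type, a separation whose share over all genes was not counted. LRMP fell by 2.04 on the log2 scale (SE 0.31, adjusted p = 0.000509) in the EZH2 mutant and by 1.21 (SE 0.25, adjusted p = 0.00497) in the double mutant against wild type. All 3 double mutant libraries lay above both EZH2 mutant libraries, as they did for 13.3% of all tested genes, and the difference did not pass (log2 0.83, SE 0.31, adjusted p = 0.218). The KMT2D mutant and wild type overlapped (log2 -0.10, 95% interval -0.63 to 0.43). Antisense genes overlap LRMP exons in the annotation, and the strand setting of the counting is not given, so reads from them cannot be told apart from LRMP reads.

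MME encodes CD10, also called neprilysin, a surface peptidase, at 155024124 to 155183729 of chromosome 3, plus strand (ENSG00000196549.10). Its levels were 22.6, 26.4 and 40.5 normalised CPM in the double mutant, 3.06 and 26.7 in the EZH2 mutant, 49.7, 56.1 and 79.2 in the KMT2D mutant, and 41.7, 69.7 and 56.5 in wild type. EZH2 mutant replicate 1 held 3 counts and replicate 2 held 54. That gap, 2.78 on the log2 scale, was matched or passed by 0.184% of the 6507 tested genes with a mean of at least 10 CPM. MME fell by 1.68 on the log2 scale (SE 0.50, adjusted p = 0.0264) in the EZH2 mutant against wild type. The value was -1.08 without EZH2 mutant replicate 1 (adjusted p = 0.0458) and -4.24 without replicate 2 (adjusted p = 0.00054), and the call was lost without wild-type replicate 2 (adjusted p = 0.0688) or replicate 3 (adjusted p = 0.0691). MME in the double mutant stood at log2 -0.93 against wild type (SE 0.40, adjusted p = 0.119). Its libraries there lay wholly below, as in 18.3% of all tested genes. That fall passed in 6 of 19 alternatives. Limma-voom (adjusted p = 0.0439) and edgeR on only the groups compared (adjusted p = 0.00919) called it, and DESeq2 did not (adjusted p = 0.243). Against the KMT2D mutant, MME in the double mutant stood at log2 -1.05 (SE 0.395, adjusted p = 0.0529) and passed in 9 of 19 alternatives. The surface antigen gene MS4A1, a B-cell gene that is no germinal centre marker, differed likewise between the EZH2 mutant libraries, at 14.3 and 77.7 CPM. The antisense gene MME-AS1 overlaps MME exons, so the same limit on strand applies.

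GCSAM encodes a signalling adaptor of germinal centre B cells that restrains their movement, at 112120841 to 112133305 of chromosome 3, minus strand (ENSG00000174500.12). It had 4, 2 and 2 counts in the double mutant, 3 and 6 in the EZH2 mutant, 45, 9 and 36 in the KMT2D mutant and 8, 20 and 20 in wild type. In normalised CPM the double mutant lay at 1.97, 1.51 and 1.16, the EZH2 mutant at 3.06 and 2.97, the KMT2D mutant at 13.6, 6.01 and 13.7 and wild type at 4.51, 6.77 and 7.63. Libraries with mutant EZH2 were all below the others, a separation whose share over all genes was not counted. GCSAM passed the filter, with its minimum count of 10, only through libraries of the KMT2D mutant and wild type. A gene kept in that way can hardly be called higher in the lines with mutant EZH2. GCSAM fell by 2.00 on the log2 scale (SE 0.51, adjusted p = 0.00745) in the double mutant against wild type. With no filter it was at log2 -2.06 (adjusted p = 0.00207). Against the KMT2D mutant it fell by 2.85 on the log2 scale in the double mutant (SE 0.47, adjusted p = 8.64e-05). From summed counts of 8 against 48, the double mutant was 4.15-fold below wild type, with a 95% interval of 1.95 to 10.2 that covers counting error only. The EZH2 mutant did not pass against wild type (log2 -1.09, SE 0.53, adjusted p = 0.121). In the KMT2D mutant the gene was at log2 0.85 (SE 0.33, adjusted p = 0.139). C3orf52, a gene on the opposite strand whose exons overlap those of GCSAM, averaged 4.03 ± 0.94 CPM over the 3 double mutant libraries, 3.79 ± 1.86 over the 2 of the EZH2 mutant, 18.6 ± 2.83 over the 3 of the KMT2D mutant and 15.9 ± 7.45 over the 3 of wild type (SD). It was named after its values were seen, and its part in the GCSAM counts was not tested.

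ITPKB encodes a kinase that turns inositol trisphosphate into the tetrakisphosphate and so limits calcium and AKT signals, at 226631690 to 226739323 of chromosome 1, minus strand (ENSG00000143772.9). It was at 66.4, 70.8 and 68.3 normalised CPM in the double mutant, 64.35 and 48.0 in the EZH2 mutant, 39.98, 42.75 and 44.9 in the KMT2D mutant, and 41.1, 38.6 and 37.8 in wild type. The double mutant libraries were the highest, and both lines with mutant EZH2 lay above the other pair. The share of all tested genes with that order was not counted. For pairs of lines, the double mutant lay wholly above wild type in 20% and above the EZH2 mutant in 13.3%. ITPKB rose by 0.81 on the log2 scale (SE 0.15, adjusted p = 0.000939) in the double mutant against wild type and by 0.68 (SE 0.15, adjusted p = 0.0016) against the KMT2D mutant. Its rise in the EZH2 mutant was log2 0.49 (SE 0.18, adjusted p = 0.0432), and that call was lost in 15 of 19 alternatives, with log2 0.30 and adjusted p = 0.338 without EZH2 mutant replicate 1. ITPKB-IT1, a transcript from an intron of ITPKB on the same strand, has a row of its own. It averaged 1.74 ± 0.231 CPM in the double mutant, 2.49 ± 2.08 in the EZH2 mutant, 7.45 ± 2.03 in the KMT2D mutant and 4.26 ± 0.23 in wild type (SD). These means stood in an order unlike those of ITPKB. They rest on low counts, 9 in the double mutant, 9 in the EZH2 mutant (1 and 8 by library), 59 in the KMT2D mutant and 31 in wild type.

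**Figure D2:**
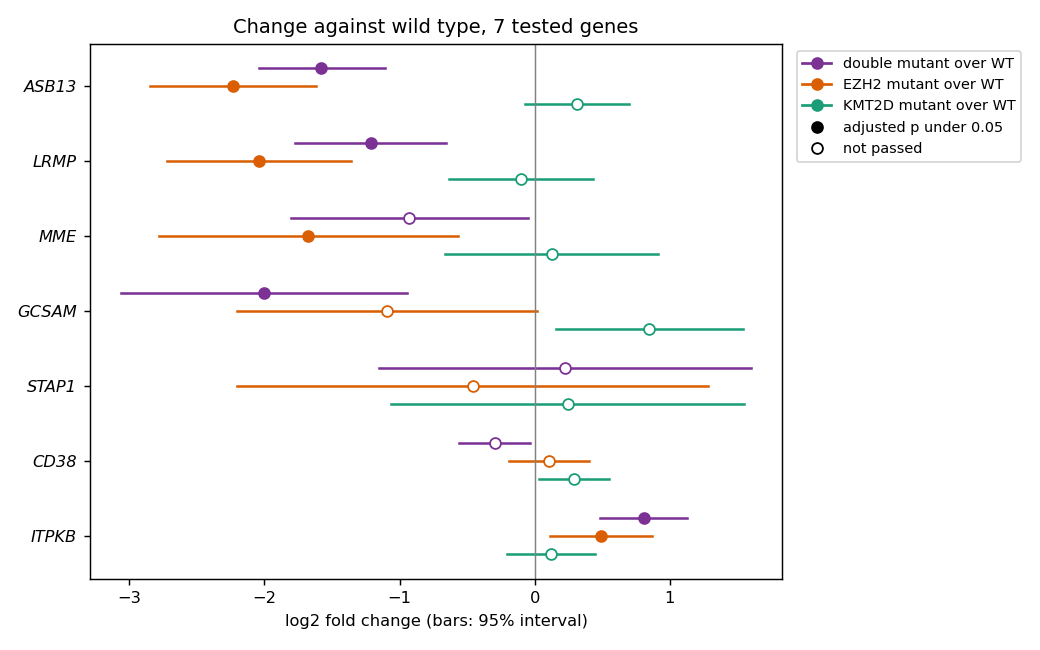
Log2 fold change (horizontal axis) of the 7 tested germinal centre marker genes in the double mutant, the EZH2 mutant and the KMT2D mutant, each over wild type. Points are estimates, bars are 95% intervals and filled points passed at an adjusted p under 0.05; ASB13, LRMP and GCSAM are filled below 0 in the double mutant, ITPKB above 0.

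CD38 encodes a surface enzyme that consumes NAD and is carried by germinal centre B cells and, at high level, by plasma cells. It lies at 15778275 to 15853230 of chromosome 4, plus strand (ENSG00000004468.12). Levels were 166, 145 and 148 normalised CPM in the double mutant, 201 and 204 in the EZH2 mutant, 231, 209.8 and 247 in the KMT2D mutant, and 183, 211 and 170.2 in wild type. The double mutant libraries were below all others. The share of all tested genes with that order was not counted. For pairs of lines, the double mutant lay wholly below wild type in 18.3% and below the EZH2 mutant in 17.2%. CD38 fell by 0.59 on the log2 scale (SE 0.13, adjusted p = 0.00109) in the double mutant against the KMT2D mutant. It did not pass in the double mutant against wild type (log2 -0.30, SE 0.13, adjusted p = 0.0964) or against the EZH2 mutant (log2 -0.40, SE 0.14, adjusted p = 0.161). In the EZH2 mutant it was at log2 0.11 (95% interval -0.19 to 0.40) and in the KMT2D mutant at log2 0.29 (95% interval 0.03 to 0.55, adjusted p = 0.178), both against wild type.

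STAP1 encodes an adaptor phosphorylated downstream of the B-cell receptor, at 67558728 to 67607337 of chromosome 4, plus strand (ENSG00000035720.7). It varied more within 3 of the 4 lines than between line means. Its levels were 13.8, 9.04 and 27.2 normalised CPM in the double mutant, 9.19 and 11.4 in the EZH2 mutant, 24.8, 7.35 and 16.4 in the KMT2D mutant, and 9.02, 27.1 and 5.72 in wild type. All lines overlapped. The spread of the wild-type libraries, 2.07 on the log2 scale, was matched or passed by 0.154% of the 6507 genes with a mean of at least 10 CPM. STAP1 passed in none of the 7 comparisons run by edgeR, and its interval in the EZH2 mutant against wild type, log2 -2.20 to 1.28, allows large changes either way.

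MYBL1, LMO2 and SERPINA9 were too low to test. MYBL1 encodes A-MYB, a transcription factor of dividing germinal centre B cells, and lies on chromosome 8. It had 1, 0 and 0 counts in the double mutant, 0 and 1 in the EZH2 mutant, 5, 0 and 1 in the KMT2D mutant, and 2, 2 and 3 in wild type. From sums of 1 against 7 counts it was 4.85-fold lower in the double mutant than in wild type, with an interval of 0.622 to 218 that includes no difference. LMO2, a bridging subunit of transcription factor complexes, and SERPINA9, a secreted serpin, had 0 counts in all 11 libraries. A count of 0 allows up to 3 counts, which is 0.909 normalised CPM in the deepest library and 3.06 in the shallowest. Genes at 0 throughout numbered 13188, and LMO2 and SERPINA9 were not detectable at this depth and with the annotation used for counting.

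Against the KMT2D mutant, 5 of the 7 genes were called in the double mutant, 4 lower and 1 higher, where 41.9% of all tested genes were called. Libraries lay wholly below in 5 and above in 1, as in 26.9% and 26.4% of all genes. In the EZH2 mutant against the KMT2D mutant 4 were lower and 0 higher, where 45.8% of all genes were called, 22.4% lower and 23.4% higher. Here too libraries lay wholly below in 5 and above in 1, as in 34.1% and 31.6% of all genes. MME, ASB13, LRMP and GCSAM were the 4, at log2 -1.80, -2.55, -1.94 and -1.94. The double mutant against the EZH2 mutant gave 0 calls by edgeR, DESeq2 and limma-voom and 2 with an unadjusted p under 0.05 (LRMP and CD38), where 2.29% of all genes were called (0.715% higher, 1.58% lower) and 15.3% had such a p. Libraries of the double mutant lay wholly below those of the EZH2 mutant in 2 genes and above in 2, as in 17.2% and 13.3% of all. Whether the change with mutant EZH2 depends on KMT2D was read from the interaction of both mutations. By edgeR 0 of 7 genes passed, where 3.02% of all did, 1.5% higher and 1.52% lower. By limma-voom 0 passed and by DESeq2 1, and 3 had an unadjusted p under 0.05, where 15.7% of all genes did. The nearest was CD38, at log2 -0.69 (SE 0.19, adjusted p = 0.0509). Over its 18 alternatives the adjusted p of CD38 ran from 0.0393 to 0.161, and 6 of them called it.

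**Figure D3:**
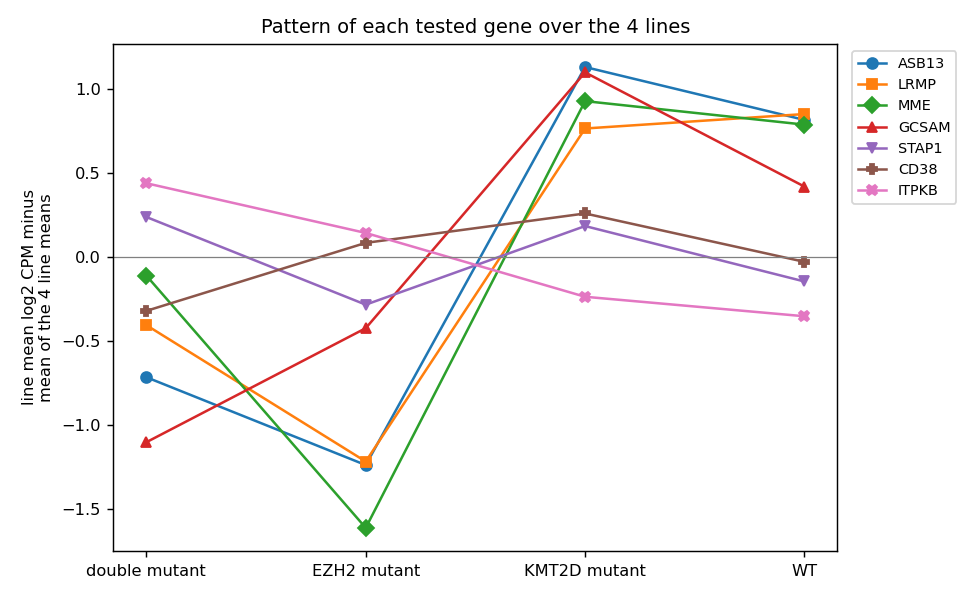
Mean log2 CPM of each of the 7 tested genes in the double mutant, EZH2 mutant, KMT2D mutant and wild type (horizontal axis), minus the mean of the 4 line means. ASB13, LRMP and MME reach their lowest point in the EZH2 mutant and GCSAM in the double mutant, while ITPKB runs the other way.

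The genes were compared by the pattern of their 4 line means of log2 CPM, each centred on its own mean. ASB13 and LRMP were the closest pair, with a root mean square difference of 0.24, followed by MME and LRMP at 0.26. ASB13 and ITPKB were the farthest apart, at 1.27. The range over line means was 2.54 for MME, 2.37 for ASB13, 2.20 for GCSAM and 2.07 for LRMP, and 0.79 for ITPKB, 0.58 for CD38 and 0.52 for STAP1. The MME range rests on EZH2 mutant replicate 1, with its 3 counts. In an alternative chosen after the data were seen, the range of MME without that library was 1.2, below those of ASB13 (2.84), GCSAM (2.20) and LRMP (1.76). Distances without it were 0.42 for ASB13 and LRMP, 0.27 for MME and LRMP and 1.35 for ASB13 and ITPKB, and STAP1 and ITPKB became the closest pair, at 0.24. Among genes with a mean of at least 10 CPM, those closest to MME were SLC25A27 (0.093) and DLGAP5 (0.144), those closest to ASB13 were B3GNT2 (0.080) and SAT1 (0.090), and those closest to GCSAM were SCAT1 (0.051) and PHYH (0.083). Without EZH2 mutant replicate 1 the same genes stood at 0.528 and 0.398 from MME, 0.36 and 0.287 from ASB13, and 0.043 and 0.175 from GCSAM, and the closest to MME were LINC00324 (0.044) and DOCK6 (0.053). Likeness to MME and ASB13 thus rests on that library. These distances rest on 4 points that share libraries, and describe likeness only.

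Of 26 tested genes in a list of 34 other genes of the germinal centre program, 8 fell and 3 rose in the EZH2 mutant against wild type, with a median of log2 -0.24, where 15.1% of all tested genes fell and 17.1% rose. They included BCL6, the repressor that directs the program (log2 -1.55), and CCND3, a cyclin (log2 -0.80), while the phosphatase gene PTPN6 rose (log2 1.25). The double mutant had 10 that fell and 1 that rose, where 11.6% of all genes fell and 12.1% rose, with a median of -0.30, CCND3 at log2 -0.89 and BCL6 at log2 -0.95. In the KMT2D mutant 3 fell and 2 rose, where 4.48% of all genes fell and 3.18% rose, with SPIB, a B-cell transcription factor gene, lower (log2 -1.08) and TCL1A higher (log2 0.44). Of the 7 germinal centre genes of the Lymph2Cx assay, 4 could be tested, ASB13, MME and ITPKB as above and S1PR2, a receptor that holds B cells in the germinal centre. S1PR2 fell in the double mutant (log2 -0.87), the EZH2 mutant (log2 -0.74) and the KMT2D mutant (log2 -0.72). In the interaction BCL6 passed at log2 0.97 (adjusted p = 0.0305), POU2AF1, a B-cell coactivator, at log2 -0.73 (adjusted p = 0.0285) and TCL1A, an AKT coactivator, at log2 -0.94 (adjusted p = 0.00254). Of all tested genes 1.5% passed above 0 and 1.52% below 0 in the interaction.

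Of the 8 activated B-cell genes of Lymph2Cx, 5 were tested. Of these, 4 fell and 0 rose in the double mutant, against 11.6% and 12.1% of all tested genes, with PIM1, a kinase, at log2 -1.21, the small GTPase gene RAB29 at log2 -1.36, IRF4, a transcription factor of activated and plasma cells, at -0.47 and the receptor gene TNFRSF13B, at low counts, as the fourth. In the EZH2 mutant PIM1 (log2 -1.54) and IRF4 (log2 -0.67) fell and 0 rose, against 15.1% and 17.1% of all genes, and in the KMT2D mutant PIM1 fell (log2 -0.90, adjusted p = 0.0088) and 0 rose, against 4.48% and 3.18%. With 5 genes, 0 higher is near those shares. Of 11 tested dark zone genes, those of the dividing and mutating part of the germinal centre, 7 fell in the EZH2 mutant, where 15.1% of all genes did, and 2 in the double mutant, where 11.6% did. Of 7 tested light zone genes 1 fell in each, a count near those shares. It was CD83, at log2 -0.83 in the EZH2 mutant and -1.08 in the double mutant, and it rose in the KMT2D mutant (log2 0.57, adjusted p = 0.0423). Among 12 tested plasma cell genes 4 rose and 3 fell in the EZH2 mutant and 2 rose and 2 fell in the double mutant, where 32.3% and 23.7% of all genes were called. FKBP11 (log2 1.09) and SSR4 (log2 0.95), both of the secretory pathway, were among those that rose in the EZH2 mutant. The 3 that fell there were TNFRSF17 (log2 -2.34), IRF4 (log2 -0.67) and DERL3 (log2 -0.59). The plasma cell surface genes SDC1 and SLAMF7 had no count in any line. Among 7 tested genes of memory and naive B cells, FCER2 (log2 2.29) and the chemokine receptor gene CCR6 (log2 2.18) rose and PTPRC fell (log2 -1.18) in the EZH2 mutant. Of all tested genes 17.1% rose and 15.1% fell there. FCER2 rose in the double mutant too (log2 1.64), where 12.1% of all tested genes rose and 11.6% fell. TNFRSF13B (log2 -2.66), CXCR5, a follicle homing receptor (log2 -0.72), and PTPRC (log2 -0.64) fell in the double mutant. CCR6 did not pass there (log2 -0.52, adjusted p = 0.563). CXCR5 rose in the KMT2D mutant (log2 1.04, adjusted p = 0.000582), where 3.18% of all tested genes rose. No test of one list against another was made.

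**Figure D4:**
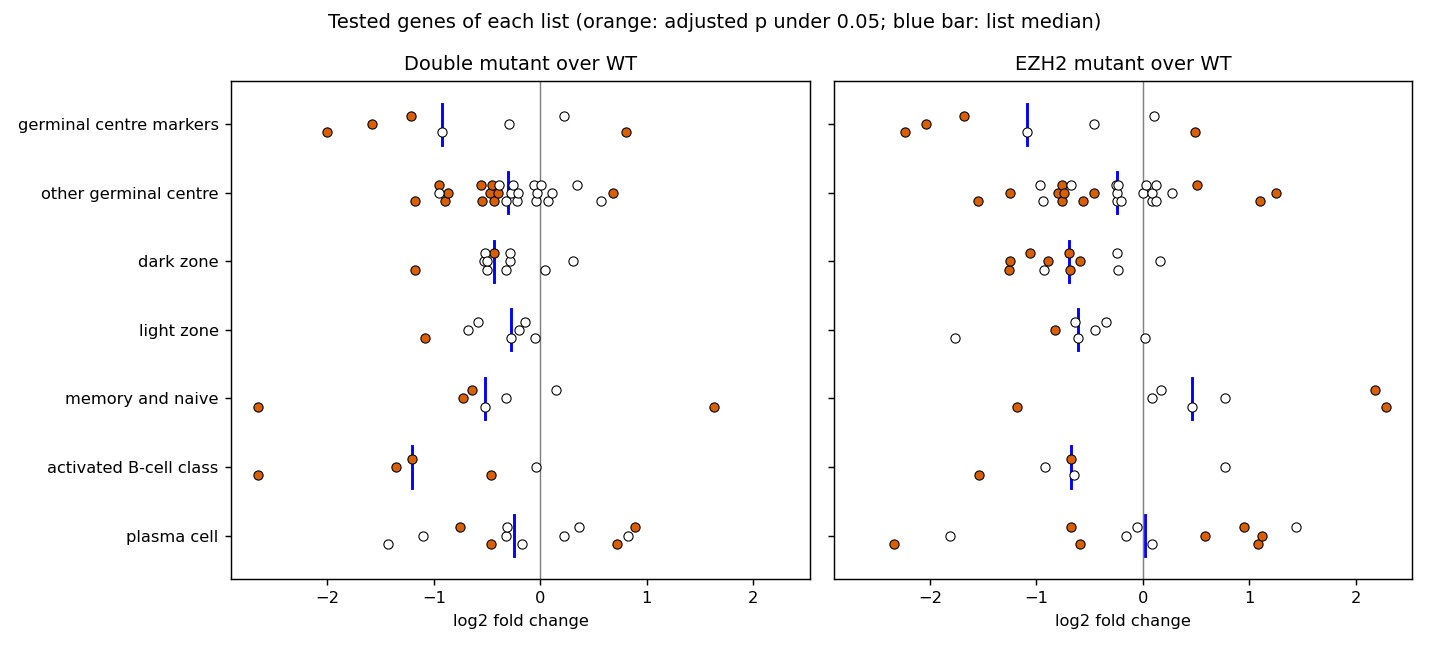
Log2 fold change of each tested gene of 7 lists in the double mutant over wild type (left) and the EZH2 mutant over wild type (right). Each point is a gene, orange points passed at an adjusted p under 0.05 and blue bars are list medians, which for the 7 tested germinal centre markers are -0.93 and -1.09.

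**Figure D5:**
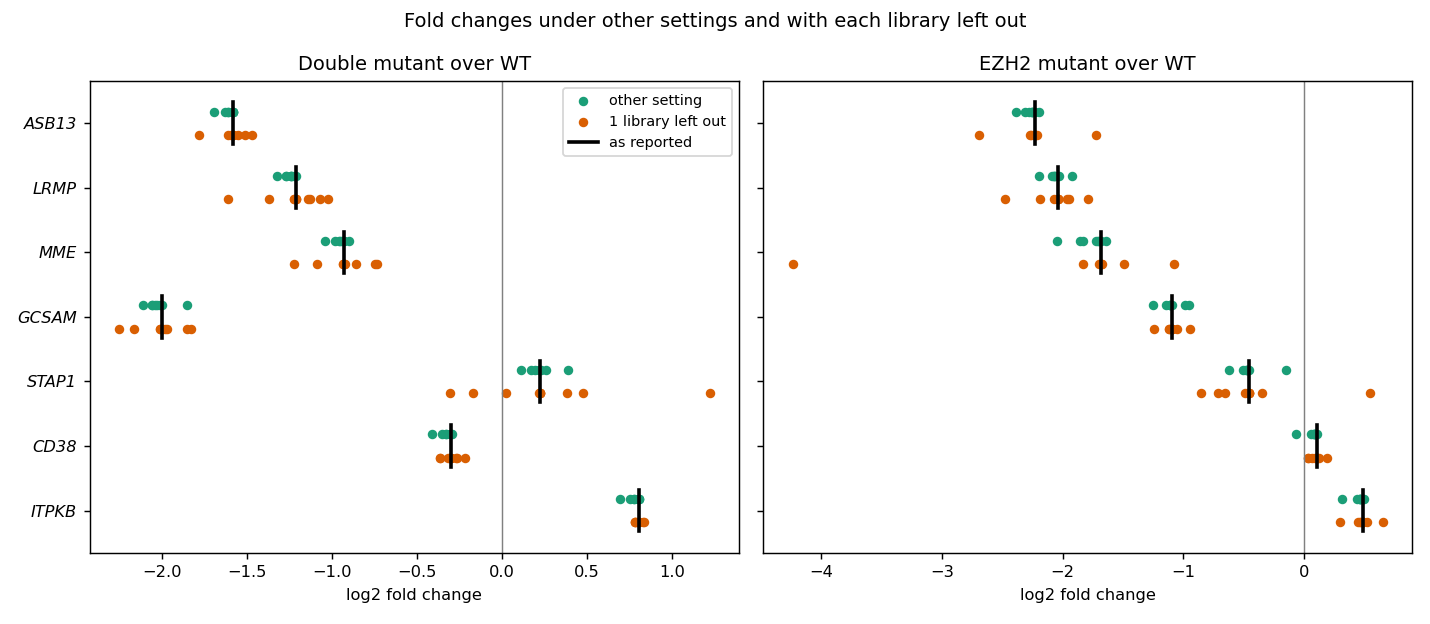
Log2 fold change of the 7 tested genes in the double mutant over wild type (left) and the EZH2 mutant over wild type (right), as reported (black bar), under other settings (green) and with 1 library left out (orange). Points of ASB13, LRMP, MME and GCSAM all lie below 0, the MME point farthest left in the EZH2 mutant is -4.24, and those of STAP1 fall on both sides of 0.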

How the data were processed

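Total RNA was turned into barcoded cDNA libraries, per the labels' protocols. Per the submitters' processing notes, reads were handled with Trim Galore 0.6.0, cutadapt 1.15, FastQC, STAR 2.7.0f and DESeq2, whose role is not named. The deposited values are counts per gene, called corrected without saying for what. Which counter, build, annotation and strand setting were used is not given in the sources used here. The table holds 11 libraries, with columns marked DM taken as the double mutant, and EZH2 mutant replicate 3 was not analysed here. 

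Tests used edgeR 4.0.16 under R 4.3.3: filterByExpr with a minimum count of 10, TMM factors, a robust quasi-likelihood fit with 1 term per line over all libraries, and Benjamini-Hochberg adjustment over 8813 genes within each of 7 comparisons, at a threshold of 0.05. SE is the log2 fold change over the root of the F statistic. CPM use the library total times the TMM factor, and log2 CPM used a prior count of 2. Sums over marker lists use the library total alone. Alternatives were no filter, a strict filter, RLE or upper-quartile factors, DESeq2 1.42.0, limma-voom (limma 3.58.1), only the groups compared, a replicate block, each library left out, and CPM of the library total. The fit was tested on simulated data. Since no label calls the replicates separate cultures, the p-values cover just the spread among these libraries, which may be technical. All members are named. From each other list up to 4 genes with the smallest adjusted p were eligible, and for the 3 members with the widest range the 2 genes of nearest pattern. TNFRSF17 and DERL3 were named beyond that rule, so that each plasma cell gene that fell in the EZH2 mutant is given. Members and lists were chosen with earlier results of these data known. Gene places are from GENCODE 29 and promoter windows from RefSeq (GRCh38.p14), where MYBL1 and LMO2 have no entry. Figures used matplotlib 3.10.9 in Python 3.11.15.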

Additional observations from a re-analysis of the deposited data

How the results depend on the processing

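Over the 7 tested genes and 7 comparisons, 867 fold changes kept their direction and their side of the threshold under the alternatives, 17 lost and 26 gained a call, and 14 changed sign. ASB13, LRMP and GCSAM kept each of their calls in every alternative run. The 14 sign changes were all of values that were not called. CD38 in the EZH2 mutant against wild type turned to -0.0638 with upper-quartile factors. With 1 library left out, STAP1 ran from -0.85 to 0.55 in the EZH2 mutant, from -0.21 to 1.24 in the KMT2D mutant and from -0.31 to 1.22 in the double mutant, all against wild type, from -0.56 to 0.43 in the double mutant against the KMT2D mutant and from -0.57 to 0.89 in the interaction. MME in the KMT2D mutant against wild type ran from -0.11 to 0.30 and ASB13 in the interaction from -0.18 to 0.80.

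The number of the 7 genes called was 4 in the EZH2 mutant against wild type and 2 to 4 with 1 library left out, MME and ITPKB being lost without wild-type replicate 2 or 3. In the double mutant against the EZH2 mutant it was 0, with 1 (LRMP) when no filter was used and 0 to 1 with 1 library left out, MME being gained without EZH2 mutant replicate 2 (log2 3.31). In the interaction it was 0, with 1 under RLE factors, 2 with no filter, 1 by DESeq2 and 0 to 1 with 1 library left out. Over the whole table the count of called genes moved by more than 1.5 times in some settings. It was 2846 in the EZH2 mutant against wild type and 1764 without its replicate 1, and 2087 in the double mutant against wild type and 1374 without its replicate 1. It was 675 in the KMT2D mutant and 346 without its replicate 3, 352 without its replicate 1 and 446 without wild-type replicate 1. In the double mutant against the EZH2 mutant it was 202, 381 with no filter, 102 with only the groups compared, and 131, 99 and 101 without double mutant replicate 2, replicate 3 and EZH2 mutant replicate 1. In the interaction it was 266, 482 with no filter, and 147, 151 and 155 without EZH2 mutant replicate 2 and KMT2D mutant replicates 1 and 3. The cause was not tested. Upper-quartile factors moved the median of all genes to -0.2 in the EZH2 mutant and -0.13 in the double mutant against wild type, with 1015 genes higher and 1762 lower in place of 1511 and 1335, and 728 and 1318 in place of 1068 and 1019. Against the KMT2D mutant they gave 1342 and 2300 in place of 1864 and 1831 in the double mutant and 1486 and 2602 in place of 2066 and 1974 in the EZH2 mutant, and between the double mutant and the EZH2 mutant 88 and 116 in place of 63 and 139.

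With the replicate block, 3 genes were called in the EZH2 mutant (ITPKB was lost, adjusted p = 0.0636), 5 in the double mutant against wild type and 6 against the KMT2D mutant (MME was gained in both, adjusted p = 0.0326 and 0.00724). Deviations from the line mean were correlated above 0.1 in 5 of 15 same-numbered pairs of libraries and in 10 of 30 differently numbered pairs. Centring each line on its own few libraries ties these correlations to each other. The counts therefore cannot show whether the replicate numbers pair the samples. Depth limits GCSAM, MYBL1, LMO2 and SERPINA9.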

Other observations

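Of 21 listed paralogs and family members of these genes 8 were tested, and 3 rose and 1 fell in the EZH2 mutant against wild type, where 17.1% of all tested genes rose and 15.1% fell. In the EZH2 mutant against wild type MYB, a transcription factor of the MYBL1 family, fell (log2 -1.37, SE 0.35), while MYBL2, of the same family, rose (log2 0.49, SE 0.13). ECE1, a peptidase related to MME, also rose (log2 0.79), as did ASB6, of the ASB13 family (log2 0.89). Against wild type 0 of the 8 were called by edgeR in the double mutant, where 23.7% of all genes were called, and MYB was at log2 -0.57 and MYBL2 at log2 0.29. Other subunits of the complexes that LMO2 joins were detected although LMO2 was not, with 4 of 10 tested. SSBP3 fell in the KMT2D mutant (log2 -1.47, SE 0.25), and LYL1, TCF3 and LDB1 passed in none of the 3 mutants against wild type.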
